A study of Mus musculus with 8 samples.

Results

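The 10 genes described here belong to late granulocyte maturation and the acute-phase response, and were measured in cultured mouse blood progenitors. They are the calprotectin genes S100a8 and S100a9, the granule genes Ltf, Camp, Ngp, Lcn2, Chil3, Fcnb and Lyz2, and the acute-phase gene Saa3. They were taken by symbol from a fixed list of 10, all 10 were found among the 48709 gene identifiers of the count files, and all 10 passed the low-count filter that left 12696 genes for testing. RNA sequencing compared 2 groups of 4 libraries each. Hematopoietic stem and progenitor cells (HSPCs, sorted from C57Bl/6J mice as Lin-Sca1+cKit+ cells, also called LKS) were grown for 7 days with 100 µM malonyl-CoA in the first group and without it in the control group. All 8 cultures shared a serum-free medium with 100 ng/ml of SCF and 2 ng/ml of Flt3 ligand, and each library holds the progeny of 10000 seeded cells in bulk. Malonyl-CoA supplies the carbon units with which fatty acid synthase extends a growing chain, and it also blocks the entry of fatty acids into mitochondria. The libraries carry the numbers 1, 3, 4 and 5 in both groups.

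Neutrophils fill their granules in a fixed order as they mature. Primary granules, with myeloperoxidase and elastase, form in promyelocytes. Secondary granules, with lactoferrin, cathelicidin and lipocalin-2, follow at the myelocyte stage under the transcription factor C/EBP epsilon, and S100a8 and S100a9 fill the cytosol of the maturing cell. Serum amyloid A3 belongs to the acute-phase proteins, which inflammatory cytokines induce through NF-kB and C/EBP factors, and in mice it is made mostly outside the liver, by macrophages among other cells.

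The genes lie in a few genomic neighbourhoods (GENCODE M21, build GRCm38). S100a8 (ENSMUSG00000056054, chromosome 3, 90668978 to 90670035) and S100a9 (ENSMUSG00000056071, chromosome 3, 90692632 to 90695721) are 22.6 kb apart on opposite strands. Camp (ENSMUSG00000038357, chromosome 9, 109847379 to 109849617), Ngp (ENSMUSG00000032484, 110419747 to 110423012) and Ltf (ENSMUSG00000032496, 111019271 to 111042767) follow each other on chromosome 9, with 570.1 kb from Camp to Ngp and 596.3 kb from Ngp to Ltf. Fcnb (ENSMUSG00000026835, 28076378 to 28084885) and Lcn2 (ENSMUSG00000026822, 32384633 to 32388252) are on chromosome 2, Chil3 (ENSMUSG00000040809, 106147554 to 106167564) is on chromosome 3, Saa3 (ENSMUSG00000040026, 46711998 to 46715700) on chromosome 7 and Lyz2 (ENSMUSG00000069516, 117277331 to 117282321) on chromosome 10. No other annotated gene overlaps any of the 10 genes.

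Upstream sequence is shown for the acute-phase gene and the calprotectin pair, because Saa3 and S100a8 stood at opposite ends of the comparison below. A secondary granule gene, Ngp, is shown beside them. It is not the most extreme of its kind: its log2 fold change (malonyl-CoA over control) was -0.75, and that of Camp was -0.84. The sequences come from RefSeq (GRCm38.p6), in which all 10 genes had an entry, read 5′ to 3′ on the gene's strand and ending before the first base that GENCODE assigns to the gene. Capitals mark matches, on either strand, to a C/EBP form (TTGCNNAA) or to an NF-kB form (GGG, then 5 bases of any kind, then CC).
Saa3, chr7:46715701-46715926, minus strand: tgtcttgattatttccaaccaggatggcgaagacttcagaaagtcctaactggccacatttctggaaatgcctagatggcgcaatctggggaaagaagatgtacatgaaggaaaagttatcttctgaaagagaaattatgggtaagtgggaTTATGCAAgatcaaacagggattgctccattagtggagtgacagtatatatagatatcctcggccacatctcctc
S100a8, chr3:90668821-90668977, plus strand: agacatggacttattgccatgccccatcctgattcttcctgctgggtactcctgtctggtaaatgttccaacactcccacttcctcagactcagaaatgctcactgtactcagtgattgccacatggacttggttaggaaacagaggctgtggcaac
S100a9, chr3:90695722-90695971, minus strand: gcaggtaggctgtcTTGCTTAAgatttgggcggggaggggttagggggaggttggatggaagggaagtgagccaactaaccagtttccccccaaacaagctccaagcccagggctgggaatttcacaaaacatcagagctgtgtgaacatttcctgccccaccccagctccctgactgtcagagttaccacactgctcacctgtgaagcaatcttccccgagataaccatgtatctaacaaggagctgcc
Ngp, chr9:110419558-110419746, plus strand: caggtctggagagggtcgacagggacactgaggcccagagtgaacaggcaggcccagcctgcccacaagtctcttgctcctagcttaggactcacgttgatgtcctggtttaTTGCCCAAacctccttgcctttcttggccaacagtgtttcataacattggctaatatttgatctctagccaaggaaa
In the 250 bases before the RefSeq start, 6 of the 10 genes held the C/EBP form (S100a9, Ltf, Ngp, Lcn2, Saa3 and Fcnb), against 9.56% of 32851 promoter windows of the same length. In Saa3 the match lay 99 to 92 bases before the start, and Ngp had one at 138 to 131 and another at 11 to 4, of which the nearer falls outside the stretch printed. The NF-kB form was in 3 of the 10 (Ltf, Lcn2 and Chil3), against 45.8% of all windows, and its matches in Ltf overlap each other. S100a8, Camp and Lyz2 held neither form. The window of Lcn2 lies wholly within the gene as GENCODE annotates it, so its matches are not upstream of that gene. In Camp only 89 bases of the window lie outside the annotated gene, and smaller parts of several other windows lie inside theirs. A match describes letters only.

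No member passed edgeR's quasi-likelihood test (Benjamini-Hochberg adjustment over 12696 genes, threshold 0.05). The background was the same, with 0.0% of tested genes called higher and 0.0% called lower. The members nonetheless covered a wide span, from a log2 fold change of 1.46 for Saa3 to -1.06 for S100a8. Of the 10 genes, 7 had a log2 fold change (malonyl-CoA over control) below 0 and 3 one above 0, with a median log2 fold change of -0.57 beside 0.02 over all tested genes. At an unadjusted p under 0.05 stood 1 member on the higher side, Saa3, and 5 on the lower side, S100a8, S100a9, Camp, Ngp and Chil3. Over all genes those shares were 5.43% higher and 4.1% lower. DESeq2 called 1 member, Saa3, and limma-voom 0. The study calls the libraries biological replicates without saying whether these are separate animals, pools or wells, so p-values measure only the spread between these samples, which may be technical. In bulk RNA, fewer cells of a type and less RNA per cell cannot be told apart.

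**Figure D1:**
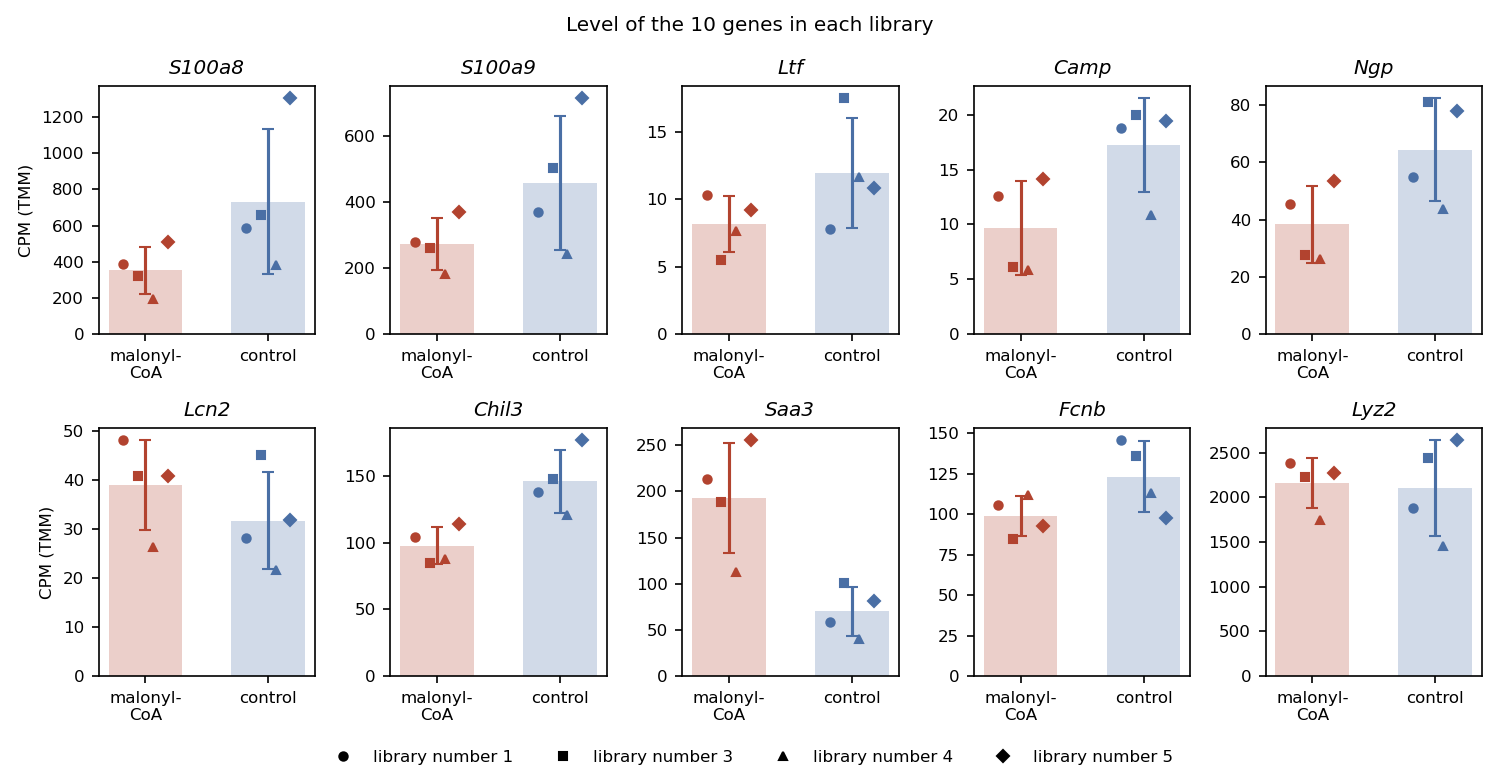
Level in CPM (TMM-scaled) of the 10 genes, with 1 point per library, bars for the mean and whiskers for the SD over 4 libraries, malonyl-CoA on the left and control on the right of each panel. The groups separate fully in Saa3 and Chil3, and control 5 reaches 1307 CPM in S100a8.

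Saa3 was the member with the largest positive log2 fold change. Its level, in counts per 1000000 gene counts scaled with TMM factors (CPM), was 214, 189, 113 and 256 in malonyl-CoA libraries 1, 3, 4 and 5, against 58.8, 101, 40.2 and 80.8 CPM in controls 1, 3, 4 and 5. Every malonyl-CoA library lay above every control, although malonyl-CoA 4 exceeded control 3 only slightly. The means were 193 ± 60.4 CPM with malonyl-CoA and 70.2 ± 26.3 CPM in control (SD, n = 4 each), a 2.75-fold difference. The log2 fold change was 1.46 (SE 0.31, edgeR unadjusted p = 0.00103, adjusted p = 0.352), with a 95% interval of 0.76 to 2.16. By unadjusted p it was number 32 among all tested genes. DESeq2 put it past the threshold (adjusted p = 0.00371), where it called 0.439% of genes higher and 0.117% lower. Leaving out any single library kept the log2 fold change between 1.27 (without control 4) and 1.69 (without control 3), and the adjusted p between 0.104 and 0.762.

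The other serum amyloid genes gave no signal. Saa1, Saa2 and Saa4, which encode the serum amyloid A proteins of the liver and a constitutive relative, had 0 counts in all 8 libraries, which allows at most 0.172 CPM in the smallest library, counting error only. That bound covers reads with a single position, since reads with several positions were left out. Of 2151 stretches of 50 bases in the Saa3 transcript, 84 also occur in transcripts of other genes.

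S100a8 and S100a9 encode the subunits of calprotectin, an alarmin that binds calcium and zinc and acts on Toll-like receptor 4. S100a8 stood at 386, 320.2, 196 and 507 CPM in malonyl-CoA libraries 1, 3, 4 and 5, against 586, 659, 380.4 and 1307 CPM in controls 1, 3, 4 and 5. All malonyl-CoA libraries were below the control median, yet malonyl-CoA 1 and 5 lay above control 4, so the groups overlap. The means were 352 ± 129.9 CPM with malonyl-CoA and 733 ± 401 CPM in control (SD, n = 4 each), a 2.08-fold difference, with a log2 fold change of -1.06 (SE 0.39, adjusted p = 0.502 in edgeR's test). S100a9 stood at 277, 259.8, 180.2 and 370.2 CPM with malonyl-CoA, against 369.5, 501, 241 and 714 CPM in control. Its order of libraries within each group was that of S100a8. Its means were 272 ± 78.0 CPM with malonyl-CoA and 456 ± 202 CPM in control (SD, n = 4 each), with a log2 fold change of -0.75 (SE 0.32, adjusted p = 0.515 in edgeR's test).

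Both differences were smaller without control 5. There the log2 fold change was -0.62 for S100a8 and -0.45 for S100a9 (adjusted p = 0.672 for both in edgeR's test). That library also stood apart in base composition: Spearman's rho between the deviation of log2 CPM and transcript GC content, over 10288 genes, was 0.20 to 0.52 in the malonyl-CoA libraries, against -0.74 in control 5 and -0.11 to 0.24 in the other controls. Genes are not independent replicates, and rho describes each library only. The transcripts of S100a8 and S100a9 hold 44.2% and 45.1% GC, below the median of 49.2%. After a correction for GC content and transcript length the log2 fold changes were -0.62 and -0.33 (adjusted p = 0.362 and 0.51 in edgeR's test). Without both control 5 and malonyl-CoA 4 they were -0.42 and -0.29 (adjusted p = 0.693 and 0.832 in edgeR's test). In both genes these were the highest control and the lowest malonyl-CoA library, so leaving out the pair had to shrink the differences. That fit is no test of base composition, whose part in the differences was not tested beyond the values above.

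The S100a8 to S100a9 ratio within a library was also compared. Its log2 was 0.48, 0.30, 0.12 and 0.45 in malonyl-CoA libraries 1, 3, 4 and 5, against 0.67, 0.40, 0.66 and 0.87 in the controls. The means were 0.34 ± 0.17 with malonyl-CoA and 0.65 ± 0.19 in control (SD, n = 4 each), a difference of -0.31 (two-sided exact permutation p = 0.0857), where 0.0286 is the smallest p this design allows. Without both control 5 and malonyl-CoA 4 the difference was -0.16. These held the highest control ratio and the lowest malonyl-CoA ratio, so leaving out the pair had to shrink it. The ratio of Saa3 to S100a8, given as a description, was 0.556, 0.59, 0.575 and 0.505 with malonyl-CoA, against 0.1, 0.153, 0.106 and 0.0618 in control. This pair held the highest and the lowest log2 fold change of the members, so a gap between groups follows from the choice.

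The secondary granule genes of chromosome 9 were lower on average with malonyl-CoA. Camp, the cathelicidin antimicrobial peptide gene, had 12.6, 6.11, 5.85 and 14.1 CPM in malonyl-CoA libraries 1, 3, 4 and 5, against 18.8, 20, 10.9 and 19.4 CPM in controls. Only control 4 reached into the malonyl-CoA range. The means were 9.66 ± 4.29 CPM with malonyl-CoA and 17.3 ± 4.27 CPM in control (SD, n = 4 each), with a log2 fold change of -0.84 (SE 0.32, adjusted p = 0.502 in edgeR's test). Ngp, a secondary granule protein related to the cathelicidins in mice, had 45.6, 27.7, 26.3 and 53.6 CPM with malonyl-CoA, against 55.0, 81.2, 43.7 and 77.9 CPM in control. Again control 4 was the lowest control and the only one inside the malonyl-CoA range. Its log2 fold change was -0.75 (SE 0.28, adjusted p = 0.502 in edgeR's test).

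Ltf, the iron-binding lactoferrin and the classical secondary granule marker, was the least abundant member per length. It had 10.3, 5.47, 7.64 and 9.16 CPM with malonyl-CoA, against 7.81, 17.5, 11.6 and 10.8 CPM in control, from 112 to 326 reads a library. The high control was number 3 and the low one number 1, which lay below 2 malonyl-CoA libraries. The log2 fold change was -0.56 (SE 0.27, adjusted p = 0.515 in edgeR's test), and -0.32 without control 3. Together, Ltf, Camp and Ngp took 0.00564% ± 0.00179 of gene counts with malonyl-CoA and 0.0092% ± 0.00224 in control (SD, n = 4 each).

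**Figure D2:**
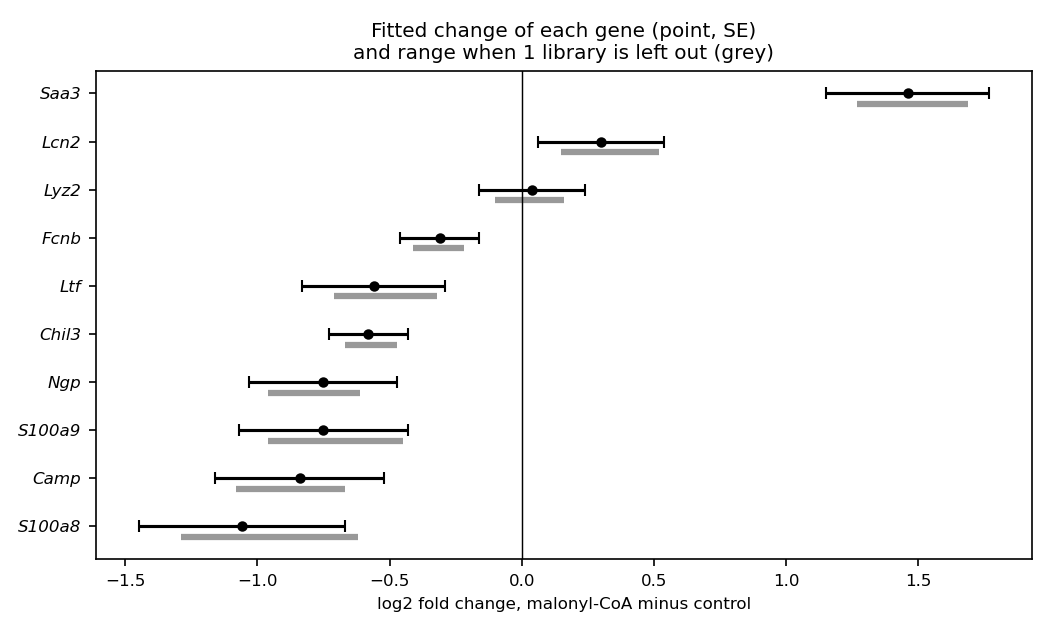
Log2 fold change of each gene from the fit over all tested genes (points, whiskers for 1 SE) and the range of that value when 1 library is left out (grey bars). Saa3 is at 1.46 and S100a8 at -1.06; the grey bar of S100a8 ends at -0.62 and that of Lyz2 crosses 0.

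Chil3 and Fcnb, genes of the granulocyte and monocyte precursor stages, were also lower on average with malonyl-CoA. Chil3 encodes Ym1, a chitinase-like lectin of mouse myeloid cells. It stood at 104, 84.6, 87.6 and 114 CPM in malonyl-CoA libraries 1, 3, 4 and 5, against 138, 148, 120.3 and 177 CPM in controls. Every malonyl-CoA library was below every control. Its log2 fold change was -0.58 (SE 0.15, edgeR unadjusted p = 0.00316, adjusted p = 0.352), and ran from -0.67 to -0.47 in the fits that left out 1 library. It was -0.43 after the correction for GC content and transcript length, and -0.43 without both control 5 and malonyl-CoA 4. Control 5 was the highest control and malonyl-CoA 4 lay below its group mean, so leaving out that pair had to shrink the difference. The Chil3 transcript holds 45.0% GC. Of its 50-base stretches 29.4% also occur elsewhere, chiefly in the near-copy Chil4, so its count is uncertain in that part. Chil4 itself had at most 3 reads in any library.

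Chil3 and Saa3 were the members whose groups did not overlap, 1 on each side. Over all tested genes, every malonyl-CoA library lay above every control in 3.21% and below every control in 2.93%. Fcnb, ficolin B, a lectin that can start the complement cascade, had 106, 84.5, 112 and 92.8 CPM with malonyl-CoA, against 146, 136, 113 and 97.6 CPM in control. Control 5 was its lowest control, the reverse of its place in S100a8, and lay within the malonyl-CoA range. The log2 fold change was -0.31 (SE 0.15, adjusted p = 0.515 in edgeR's test), and -0.48 without control 5 and malonyl-CoA 4. Malonyl-CoA 4 was the highest library of its group here, so leaving out that pair had to widen the difference.

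The groups overlapped widely in Lcn2 and Lyz2. Lcn2, lipocalin-2, binds bacterial iron carriers and is both a secondary granule protein and an acute-phase protein. It had 48.3, 40.8, 26.4 and 40.9 CPM in malonyl-CoA libraries 1, 3, 4 and 5, against 28.2, 45.2, 21.7 and 32 CPM in controls. Its log2 fold change was 0.30 (SE 0.24, adjusted p = 0.599 in edgeR's test), with a 95% interval of -0.25 to 0.85, and it moved to 0.18 when malonyl-CoA 1 was left out, to 0.52 for control 3 and to 0.15 for control 4. Lyz2, lysozyme of neutrophils and macrophages, had 2387, 2224, 1749 and 2268 CPM with malonyl-CoA, against 1884, 2433, 1458 and 2642 CPM in control. Its log2 fold change of 0.04 (SE 0.20, 95% interval -0.40 to 0.47, adjusted p = 0.947 in edgeR's test) turned negative when malonyl-CoA 1, control 1 or control 4 was left out. It shares 15.4% of its 50-base stretches with other genes, chiefly Lyz1, a near-copy that stood at 1.81 ± 0.527 CPM with malonyl-CoA and 1.12 ± 0.406 CPM in control (SD, n = 4 each).

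Compared per kilobase of exon, the members spanned places 17 to 8436 among 12696 tested genes. Lyz2 averaged 1639 CPM per kb with malonyl-CoA and 1599 CPM per kb in control, the highest level of the 10. S100a8 averaged 507 CPM per kb with malonyl-CoA and 1057 in control, and S100a9 521 with malonyl-CoA and 874 in control. The middle of the range held Fcnb (73.9 CPM per kb with malonyl-CoA, 92.0 in control), Chil3 (59.8 with malonyl-CoA, 89.4 in control), Saa3 (74.0 with malonyl-CoA, 26.9 in control) and Ngp (31.3 with malonyl-CoA, 52.7 in control). Camp (12.7 CPM per kb with malonyl-CoA, 22.8 in control), Lcn2 (14.9 with malonyl-CoA, 12.1 in control) and Ltf (2.36 with malonyl-CoA, 3.47 in control) were lower. In control, Saa3 ranked below Fcnb, Chil3 and Ngp. With malonyl-CoA its mean was level with that of Fcnb, within the spread of either. The 10 genes together took 0.33% ± 0.0466 of gene counts with malonyl-CoA and 0.368% ± 0.107 in control (SD, n = 4 each), and Lyz2 took most of these counts.

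Spread between libraries of a group was wider for the members than for all tested genes at the median. Their median coefficient of variation was 27.2% with malonyl-CoA and 29.6% in control, beside 16.3% with malonyl-CoA and 18.3% in control over all tested genes. Malonyl-CoA 4 was the lowest or next to lowest library of its group in S100a8, S100a9, Ltf, Camp, Ngp, Chil3, Lcn2, Saa3 and Lyz2, and the highest in Fcnb. Among controls, number 4 was the lowest in S100a8, S100a9, Camp, Ngp, Lcn2, Chil3, Saa3 and Lyz2. Libraries numbered 4 in both groups were thus low for most members, those higher with malonyl-CoA and those lower alike.

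**Figure D3:**
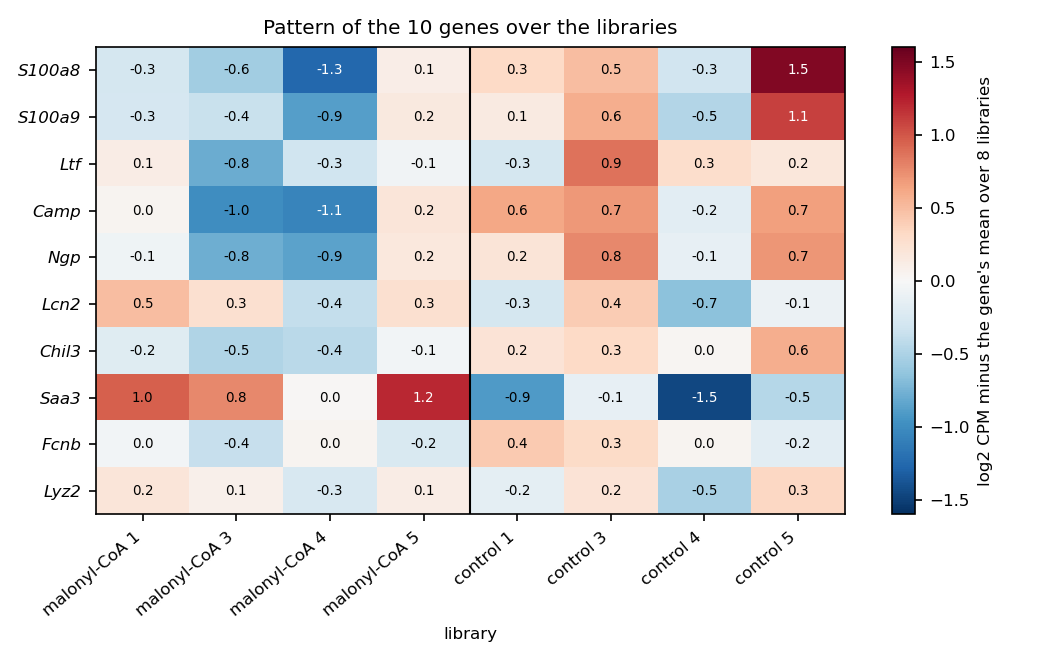
Log2 CPM of each gene minus its own mean over the 8 libraries, with malonyl-CoA libraries to the left of the line and controls to the right. S100a8, S100a9, Camp and Ngp share the high values of controls 3 and 5, while Saa3 is high in malonyl-CoA 1, 3 and 5 and lowest in control 4.

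Likeness between genes was measured as the root mean square difference of their centred log2 CPM over the 8 libraries, among 10643 other genes. For S100a8, whose own values deviated by 0.76, the nearest were the ribosomal protein genes Rpl22l1 (0.10), Rpl39 (0.14) and Rps25 (0.20). S100a9 was number 5 (0.22), Ngp number 36 (0.35) and Camp number 58 (0.38). For Ltf the nearest was Cd177 (0.22), a neutrophil surface protein kept in secondary granules, then the pseudogene Rpl7-ps7 (0.24) and Cd300lg (0.31). For Saa3 they were Fpr2 (0.18), a formyl peptide receptor that also binds serum amyloid A, the high-affinity IgG receptor gene Fcgr1 (0.23) and the costimulatory receptor gene Cd40 (0.24). Their log2 fold changes were 1.34 (SE 0.37), 1.25 (SE 0.34) and 1.10 (SE 0.30). Rpl22l1, Rpl39 and Rps25, nearest to S100a8, had -0.86 (SE 0.37), -0.82 (SE 0.36) and -0.83 (SE 0.30). Likeness includes the difference between the groups, so fold changes near those of Saa3 and S100a8 follow from the choice of genes. Among the members Lcn2 was nearest to Saa3, at number 214 (0.61). Fcnb, with a deviation of 0.25, was nearest to Slc28a2 (0.09), Pdp1 (0.10) and Sgms2 (0.10), and Lyz2, with 0.27, to Ripk2 (0.09), Dcun1d3 (0.10) and Mcl1 (0.10). All 5 patterns come from the same 8 libraries.

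Other genes of the same programmes were read from lists drawn up by function, with earlier results of these data known. Counts in these lists at an edgeR unadjusted p under 0.05 stand beside 5.43% higher and 4.1% lower over all tested genes. None of their genes passed edgeR's test over all genes, and DESeq2 called those named as such. Of 22 other acute-phase genes 8 were expressed enough to test. Of these 6 were higher and 2 lower on average, with 5 higher and 0 lower at an unadjusted p under 0.05 and a median log2 fold change of 1.11. Hp, haptoglobin, averaged 497 ± 73.2 CPM with malonyl-CoA and 293 ± 53.5 CPM in control (SD, n = 4 each; log2 fold change 0.76, SE 0.17, adjusted p = 0.352 in edgeR's test), with all malonyl-CoA libraries above all controls. Cp, the copper carrier ceruloplasmin, averaged 20.6 ± 5.84 CPM with malonyl-CoA and 8.55 ± 3.61 CPM in control (log2 fold change 1.27, SE 0.32), likewise without overlap. DESeq2 called both higher (adjusted p = 0.0245 and 0.0303). Serpina3g, a protease inhibitor gene, averaged 88.4 ± 43.6 CPM with malonyl-CoA and 31.7 ± 19.1 CPM in control (1.48, SE 0.54), and here the groups overlapped. Summed over the list the level was 914 to 1001 CPM with malonyl-CoA and 457 to 608 CPM in control. The fibrinogen genes Fga, Fgb and Fgg, defining products of the liver, had 0 counts.

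Granule genes outside the 10 lay on both sides. Of 19 other secondary and tertiary granule genes 16 were tested, 8 higher and 8 lower (median 0.05, with 1 higher and 2 lower at an unadjusted p under 0.05). Hp, itself stored in granules, was the 1 on the higher side. On the lower side, Cd63 averaged 189 ± 46.8 CPM with malonyl-CoA and 262 ± 27.7 CPM in control (SD, n = 4 each, log2 fold change -0.47, SE 0.17). Cd63 is a tetraspanin of granule membranes, chiefly those of primary granules, so its place in this list is loose. Pglyrp1, a peptidoglycan-binding protein, averaged 24.2 ± 6.40 CPM with malonyl-CoA and 33.3 ± 5.23 CPM in control (-0.46, SE 0.20). All 10 primary granule genes were tested, 9 of them lower and 1 higher (median -0.15, 3 lower and 0 higher at an unadjusted p under 0.05). Ms4a3, a membrane protein of granulocyte and monocyte precursors, averaged 504 ± 89.8 CPM with malonyl-CoA and 685 ± 90.7 CPM in control (log2 fold change -0.44, SE 0.15). Of 13 other S100 genes and S100 partners 7 were tested, 1 higher and 6 lower (median -0.18), and 0 reached an unadjusted p of 0.05.

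**Figure D4:**
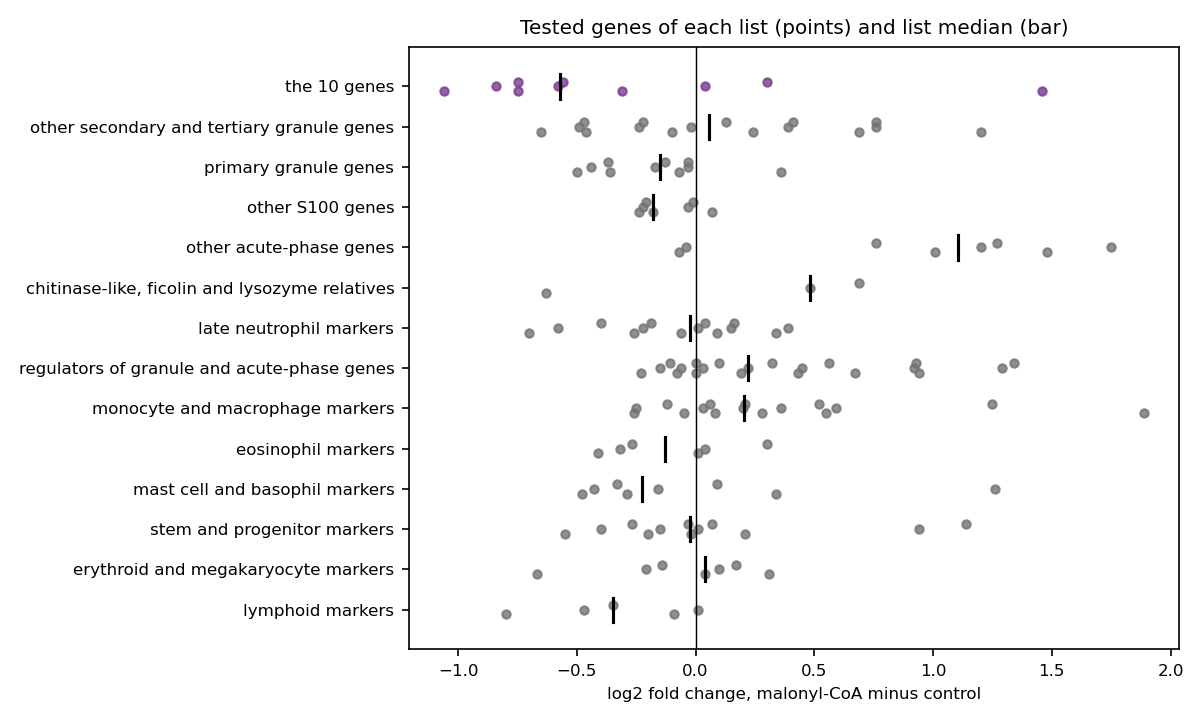
Log2 fold change of each tested gene in the 10 genes (purple) and in related lists (grey), with a bar at each median. The 10 genes run from -1.06 to 1.46 around a median of -0.57, and the other acute-phase genes have a median of 1.11.

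Chitinase-like, ficolin and lysozyme relatives were few. Of 8 genes 3 were tested, 2 higher and 1 lower. Chil1, another chitinase-like lectin, averaged 72.4 ± 7.01 CPM with malonyl-CoA and 51.8 ± 6.52 CPM in control (SD, n = 4 each; log2 fold change 0.48, SE 0.13, adjusted p = 0.352 in edgeR's test), without overlap, opposite in direction to Chil3. The difference between Chil1 and Chil3 was not tested. Among 22 regulators of these genes 21 were tested, 15 higher and 6 lower (median 0.22, 9 higher and 0 lower at an unadjusted p under 0.05). The NF-kB cofactor Bcl3 averaged 21.9 ± 2.26 CPM with malonyl-CoA and 8.65 ± 2.88 CPM in control (log2 fold change 1.34, SE 0.21, adjusted p = 0.218 in edgeR's test), the subunit Nfkb2 55.5 ± 6.00 CPM with malonyl-CoA and 29.2 ± 7.18 CPM in control (0.93, SE 0.18) and Spi1, which encodes PU.1, 204 ± 4.86 CPM with malonyl-CoA and 151 ± 12.1 CPM in control (0.43, SE 0.10). DESeq2 called these 3 higher, and also Cebpb, C/EBP beta (adjusted p = 0.0467). Cebpe, named here for its role and not by rule, averaged 24.1 ± 4.60 CPM with malonyl-CoA and 25.2 ± 5.59 CPM in control (log2 fold change -0.06, SE 0.20).

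Cell type markers were read beside the members, since a bulk culture can hold several cell types. Late neutrophil markers were near the detection limit in part: Ly6g, the defining surface marker of mature mouse neutrophils, had at most 3 reads and Retnlg at most 9 in any library. Of 22 such genes 14 were tested, 7 higher and 7 lower (median -0.02, 1 higher and 1 lower at an unadjusted p under 0.05). Cxcr2 was lower without overlap (log2 fold change -0.40, SE 0.16). Mxd1 was higher (0.34, SE 0.15) and Wfdc21 lower (-0.58, SE 0.32), both with overlap. The list summed to 473 to 534 CPM with malonyl-CoA and 436 to 559 CPM in control. The primary granule list summed to 14913 to 18779 CPM with malonyl-CoA and 13390.3 to 22607 CPM in control. Of 17 monocyte and macrophage markers 16 were tested, 12 higher and 4 lower (median 0.21), with a sum of 3558 to 4142 CPM with malonyl-CoA and 3203 to 4328 CPM in control. Marco (log2 fold change 1.89, SE 0.23), Csf1r (0.52, SE 0.11) and Fcgr1 led it, and DESeq2 called these 3 higher. The part of these cell types in the members' values was not tested.

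The remaining marker lists overlapped in sum between the groups, except 2. Mast cell and basophil markers summed to 678 to 761 CPM with malonyl-CoA and 767 to 1007 CPM in control (8 of 10 tested, 3 higher and 5 lower), led by Fcer1a, Cpa3 and Mcpt8 at log2 fold changes of -0.48, -0.43 and -0.33. Stem and progenitor markers summed to 1201 to 1267 CPM with malonyl-CoA and 1341 to 1498 CPM in control (12 of 12 tested, 5 higher and 7 lower), with Cd34 at -0.40 and Hlf at -0.55, both without overlap, of which DESeq2 called Cd34 lower. Kit averaged 244 ± 51.9 CPM with malonyl-CoA and 270.1 ± 36.7 CPM in control and Flt3 186 ± 18.4 CPM with malonyl-CoA and 189 ± 20.4 CPM in control (SD, n = 4 each). Ly6a, the gene of the sort marker Sca1, averaged 81.3 ± 37.2 CPM with malonyl-CoA and 42.2 ± 21.1 CPM in control (SD, n = 4 each; log2 fold change 0.94, SE 0.44, adjusted p = 0.515 in edgeR's test), with overlap. Transcripts of both sort markers, Kit and Ly6a, were thus detected in all 8 libraries. Eosinophil, erythroid and megakaryocyte, and lymphoid markers had medians of -0.13, 0.04 and -0.35 over 6, 7 and 5 tested genes, led by Prg3, Klf1 and Rag2, the last called lower by DESeq2. In the eosinophil list 3 genes were higher and 3 lower, in the erythroid and megakaryocyte list 4 and 3, and in the lymphoid list 1 and 4.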

How the data were processed

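The authors deposited raw counts per Ensembl gene, 1 file per library. Per the submitters' processing notes, cutadapt 1.8, STAR 2.5.2b and HTSeq 0.6.1 were used with build GRCm38. Annotation release and strand setting: not given in the sources used here. Per the labels' protocols, a stranded kit took 350 ng of RNA. Counts assigned to genes were 17492085 to 22079844 a library. Classes that name no gene were left out: 1.11% to 2.94% of tallied reads in no feature, 0.715% to 0.891% ambiguous and 38.2% to 51.1% with several positions, where reads of near-copies are lost. Symbols and coordinates came from GENCODE M21 (48349 of 48709 identifiers matched).

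The fit used edgeR 4.0.16 in R 4.3.3: filterByExpr (minimum count 10, total 15), TMM factors, glmQLFit (robust, not legacy) and the two-sided glmQLFTest without covariates, adjusted over 12696 genes. The SE was obtained by dividing the size of the log2 fold change by the root of F, and 95% intervals use the t distribution of the fit. A prior count of 2 entered log2 CPM. The functions were tested on simulated data first.

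The members, lists and tests were chosen with earlier results of these data known. All 10 members are named, up to 3 genes of each of 13 lists by smallest unadjusted p, and the 3 nearest genes to 5 members (mean log2 CPM at least 1, no predicted models). Kit, Flt3, Mpo, Elane, Cebpe, Cebpb, Ly6g, Retnlg, Chil4 and the genes given with 0 counts are named outside this rule. The 28 pairs of libraries all differed by more than sampling noise (chi-square per gene at least 7.63). Alternatives were RLE factors, library size only, 2 other filters, a replicate block, DESeq2 1.42.0, limma-voom (limma 3.58.1), a GC and length correction (loess, span 0.5, genes with mean log2 CPM above 2), each library left out, control 5 and malonyl-CoA 4 left out together, and, chosen after seeing the data, the legacy fit. DESeq2 gave no adjusted p for 7229 genes.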

Additional observations from a re-analysis of the deposited data

Results flagged for a closer look

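Of 134 groups of 4 values checked, 9 held a library set far apart from the other 3 of its group, and chance flags about 1 in 20 groups. Among the members, Camp was at 10.9 CPM in control 4, against 18.8 to 20 CPM in the other controls. Among genes near them, Serpina3g was at 23.4 CPM in malonyl-CoA 4, against 104 to 114 CPM in the other libraries of that group, Fcgr1 at 7.24 CPM, against 15.9 to 16.9 CPM, and Mcl1 at 328 CPM, against 441 to 459.7 CPM. Cd300lg was at 9.45 CPM in malonyl-CoA 1, against 7.86 to 7.95 CPM, and Prss57 at 64.3 CPM in malonyl-CoA 3, against 87.1 to 91.0 CPM. In controls, Hp was at 213 CPM in control 5, against 310.1 to 330 CPM, and Bcl3 at 13 CPM in control 3, against 7.02 to 7.42 CPM. The share of tallied reads in no feature was 2.94% in malonyl-CoA 4, against 1.19% to 1.34% in the other malonyl-CoA libraries.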

How the results depend on the processing

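Of 180 member values under 18 alternatives, 173 kept their direction and stayed on their side of the threshold, 4 passed it and 3 changed sign. The 3 sign changes were in Lyz2, which ran from -0.10 (without control 4) to 0.16 when 1 library was left out, with -0.017 without malonyl-CoA 1 and -0.013 without control 1. The cause was not tested. DESeq2 called 64 genes higher and 17 lower, 1 of them a member, and a fit with no low-count filter called 1 gene higher. The replicate numbers did not pair the libraries by the criterion of a correlation over 0.1 in every pair. Same-numbered libraries' deviations correlated at 0.435, 0.428, 0.754 and 0.052 for numbers 1, 3, 4 and 5. Malonyl-CoA 1, 3 and 4 each correlated best with the control of their own number, and malonyl-CoA 5 did not. With a replicate block 144 genes were called higher (1.13%) and 28 lower (0.221%), 3 of them members: S100a8 (log2 fold change -0.99, adjusted p = 0.0464 in edgeR's test), Chil3 (-0.58, 0.048) and Saa3 (1.48, 0.0464). With 1 library left out 0 genes and 0 members were called, and the log2 S100a8 to S100a9 difference ran from -0.40 to -0.24. That difference was -0.16 without both control 5 and malonyl-CoA 4, which held the highest control ratio and the lowest malonyl-CoA ratio. Scaling moved the median of all genes to at most 0.065. Ltf had the lowest counts of the members, 112 to 326 reads.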
